A study of Mus musculus with 2 samples.

Results

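Endothelial transcripts were examined in ureters of E18.5 mouse embryos. The 10 genes were Esm1 and Apln (tip cell genes), Pecam1, Cdh5, Kdr, Tek and Emcn (grouped as pan-endothelial), and Aplnr, Plvap and Lyve1. They were chosen by name: every non-control spot whose gene name in the scanner files is one of the 10 was taken. This gave 12 probes and 21 spots on each array, of 39429 probes and 43020 spots, and 10 of the 20989 features tested. All 10 genes were well above background in the 4 channels.

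Ureter RNA was compared on 2 two-colour arrays, pairing Rbpj-cKO with control RNA within each sex. The Rbpj-cKO embryos had the genotype Tbx18(cre/+);Rbpj(fl/fl), so that a cre recombinase in 1 Tbx18 allele acts on 2 floxed Rbpj alleles. The controls had the genotype Rbpj(fl/?), with the second allele not given and no cre listed. All embryos were of the NMRI strain. Rbpj-cKO RNA was red (AlexaFluor647) on the male array and green (AlexaFluor555) on the female array. The number of embryos behind an RNA is not in the labels. The p-values measure only spread between these 2 arrays, with each gene's spread drawn toward that of all features. Sex, dye and array change together, and their parts in a difference between the arrays cannot be told apart.

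Endothelial cells line blood and lymph vessels. In growing vessels a leading tip cell extends a sprout and stalk cells follow it, and Notch signalling, through its DNA-binding partner Rbpj, restrains neighbours of a tip cell from taking the tip state. Esm1 and Apln are secreted proteins used as markers of tip cells. Pecam1 and Cdh5 mark endothelium of nearly all vessels. Emcn, grouped with them as pan-endothelial, is a gene of venous and capillary endothelium. Tbx18 is expressed in the mesenchyme around the ureteric bud, and whether cre acted in any endothelial cell was not measured. In whole ureters, fewer endothelial cells and less RNA per cell cannot be told apart.

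The probes are printed here because each value below rests on 1 oligonucleotide, and for most genes on a single spot of it per array. Each probe has 60 bases, of which the first 30 are given, 5′ to 3′ on the transcript's strand, with the position of the whole probe on mm9 as the files give it. The exon or untranslated region in which a probe lies was not analysed here.
Esm1 (chr13:114008204-114008263, plus strand): aatgtactcgtgggaagatccgtgaatgta
Apln (chrX:45378593-45378652, minus strand): gtcctttggcatctgttcgaatgtcctcat
Aplnr (chr2:84979638-84979697, plus strand): gggcctttgtgagctggacatgggtgtgca
Tek (chr4:94540624-94540683, plus strand): aacaccacactgtatgagaagtttacctat
Kdr, brighter probe with 10 spots (chr5:76329309-76329368, minus strand): ctactgtatcctttagaattttaacctata
Kdr, second probe (chr5:76330395-76330454, minus strand): tgtttaaatggaagtggtcctgtcccggct

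The arrays gave strong signals. The median signal was 6.38 to 13.3 times the median background, between 65.6% and 70.0% of probes were well above background in each channel, and no probe spot was saturated. Over all features the turned ratios of the male and the female array had a correlation of -0.18, and they were opposite in sign for 58.6% of features. Rbpj had levels of 6651 and 7965 in Rbpj-cKO and 19927 and 15137 in control channels (male, then female), and its mean log2 ratio of -1.25 had a limma adjusted p of 0.0760. This did not pass the threshold. A second Rbpj probe gave log2 ratios of -0.42 and -1.12, and where either probe lies relative to the floxed part was not analysed here. Heyl, a Notch target, had levels of 1125 and 1305 in Rbpj-cKO and 3349 and 2968 in control channels, and fell 2.60-fold in Rbpj-cKO ureters (limma adjusted p = 0.0247). That call was lost, with all others, with median centring, with Agilent's processed signals, with the deposited value table and without the filter on dim probes, where no feature passed.

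Levels below are normalized intensities in arbitrary units, given for the male and then the female array. Ratios are on the log2 scale with Rbpj-cKO on top, given per array, and means are over both arrays. Probes differ in brightness, so levels of different genes do not compare their amounts. Summed levels of a list are weighted toward its brightest probes. Counts by sign within a list stand beside 21.7% of all features higher on both arrays, 19.7% lower on both and 58.6% opposite.

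Both tip cell genes were higher in Rbpj-cKO than in control RNA on each array, and mostly on the male one. Esm1, the secreted proteoglycan endocan, had levels of 3060 and 2807 in Rbpj-cKO channels, against 1108 and 2396 in control channels. The groups did not overlap, and the male control stood apart as the lowest of the 4 channels. The log2 ratio was 1.47 in male and 0.23 in female ureters (mean 0.85, SD 0.87, n = 2), a 1.80-fold difference whose spread between arrays was as large as its mean. It did not pass over all features (limma adjusted p = 0.847). The 2 Rbpj-cKO levels of Esm1 differed by 0.12 on the log2 scale (male minus female), whereas the 2 control levels differed by -1.11. A larger gap between controls was found for 0.557% of features. The 2 controls differ in sex, dye and array. The genes were chosen with earlier results of these data known, so such shares only describe where a gene lies.

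Apln encodes apelin, the peptide ligand of Aplnr. Its levels were 5744 and 5059 in Rbpj-cKO channels and 4075 and 4825 in control channels. The Rbpj-cKO levels again lay above both control levels, by a small margin on the female array. The log2 ratio of Apln was 0.50 in male and 0.07 in female ureters (mean 0.28, SD 0.30, n = 2; limma adjusted p = 1.00). The female value turned to -0.07 with Agilent's processed signals, so its sign there depended on the processing.

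Aplnr, the receptor that apelin activates and that is known from veins and sprouting endothelium, ran the other way. It had levels of 1522 and 965.1 in Rbpj-cKO channels, against 1910 and 1467 in control channels. Aplnr was lower in Rbpj-cKO on each array, but the male Rbpj-cKO level lay above the female control level, so the groups overlapped. Its log2 ratio was -0.33 and -0.60 (mean -0.47, SD 0.20, n = 2), a 1.38-fold lower level that did not pass (limma adjusted p = 1.00). Of all members, Aplnr had the lowest mean ratio and Esm1 the highest, and 0.257% of features had a mean above that of Esm1 and 1.83% a mean below that of Aplnr.

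**Figure D1:**
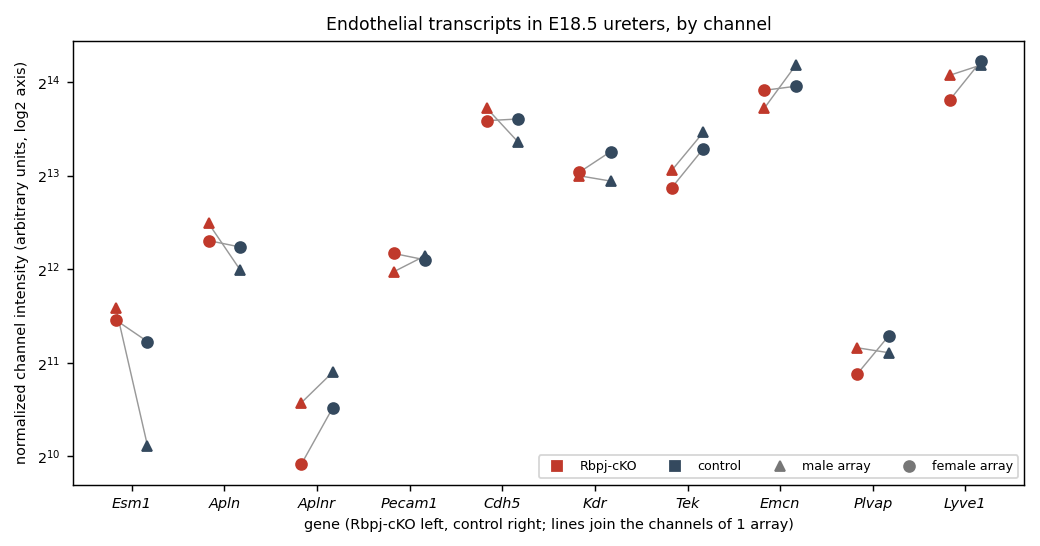
Normalized channel intensity (log2 axis) of the 10 genes, with the Rbpj-cKO channels (red) left of the control channels (dark), triangles for the male and circles for the female array, and lines joining the channels of 1 array. Esm1 in the male control channel, at 1108, lies below its 3 other channels at 2396 to 3060.

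The pan-endothelial genes did not share a direction. Of the 5, 2 were lower on both arrays and 3 were opposite between arrays, beside 19.7% and 58.6% of all features. Tek, the angiopoietin receptor Tie2, had levels of 8509 and 7487 in Rbpj-cKO channels and 11272 and 9981 in control channels. These groups did not overlap, and the arrays gave nearly the same log2 ratio, -0.41 and -0.41 (SD 0.0064, n = 2), a 1.33-fold lower level with a limma adjusted p of 1.00. The arrays were less alike in other settings, with -0.17 and -0.50 after median centring (SD 0.23) and an SD of 0.07 with processed signals. Median centring left the median of all features at 0.17 in male and -0.09 in female ureters, and this shift is part of that gap. The test uses the spread pooled over all features (limma SE 0.19).

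Emcn, a sialomucin of venous and capillary endothelium, had levels of 13492 and 15396 in Rbpj-cKO and 18565 and 15865 in control channels. The groups did not overlap, and the log2 ratio was -0.46 on the male but -0.04 on the female array (mean -0.25, SD 0.29). The size of that split varied with the processing. The log2 ratio was -0.18 and -0.20 with median centring, and -0.42 and -0.21 with processed signals. The values under median centring carry its shift of all features, 0.17 in male and -0.09 in female ureters at the median. Cdh5, the cadherin of endothelial junctions, had levels of 13511 and 12293 in Rbpj-cKO channels, against 10506 and 12449 in control channels. Its male control was the lowest channel, as for Esm1, and its log2 ratio was 0.36 in male and -0.02 in female ureters (mean 0.17, SD 0.27).

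Pecam1, an adhesion molecule of endothelial cell contacts, had levels of 4020 and 4599 in Rbpj-cKO and 4525 and 4386 in control channels. The groups overlapped and the log2 ratios were -0.17 and 0.07 (mean -0.05; 95% interval from the limma fit -0.48 to 0.38). That interval does not show equal levels. The arrays shared a sign in other settings, with 0.01 and 0.02 after median centring and -0.13 and -0.07 with processed signals.

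Kdr encodes Vegfr2, the main receptor of vascular endothelial growth factor A. It had levels of 8177 and 8386 in Rbpj-cKO channels and 7862 and 9777 in control channels, and log2 ratios of 0.06 and -0.22 (mean -0.08; 95% interval from the limma fit -0.51 to 0.35). The groups overlapped. Its brighter probe, shown above, was spotted 10 times, which gives the error within an array. On the male array 8 spots gave 0.02 to 0.11 (SD 0.03), and on the female array 9 spots gave -0.39 to -0.02 (SD 0.13), after outlier spots were left out. The second Kdr probe gave -0.07 in male and 0.03 in female ureters, opposite in sign to the brighter one on each. Over 320 probes with 10 spots the median SD between spots was 0.04 in male and 0.14 in female ureters. Esm1 itself has 1 spot on each array. Its gap of 1.24 between the arrays was exceeded by 2.11% of features.

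Plvap forms the diaphragms of fenestrated capillaries. Its levels were 2289 and 1881 in Rbpj-cKO and 2207 and 2495 in control channels, so the groups overlapped. The log2 ratio of Plvap was 0.05 in male and -0.41 in female ureters (mean -0.18), and its second probe gave 0.24 and -0.35. Both probes thus put the lower Rbpj-cKO level on the female array alone.

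Lyve1, a hyaluronan receptor of lymphatic endothelium that some tissue macrophages also carry, had levels of 17203 and 14315 in Rbpj-cKO channels, against 18569 and 19138 in control channels. The groups did not overlap, and the female Rbpj-cKO channel was the lowest. Its log2 ratio was -0.11 in male and -0.42 in female ureters (mean -0.26, SD 0.22, n = 2; limma adjusted p = 1.00), and the male value turned to 0.18 with median centring.

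None of the 10 genes passed limma's test after adjustment over all features, beside 0.129% of all features (27 of 20989; 0.0429% higher and 0.0858% lower in Rbpj-cKO). An unadjusted limma p under 0.05 was found for 2 members, Esm1 (0.00844) and Aplnr (0.0370), beside 3.37% of all features. Changes of at least 1.5-fold on both arrays were found in 0 members in either direction, beside 0.205% (higher) and 0.434% (lower) of features. Both Rbpj-cKO levels lay above both control levels for 2 members, Esm1 and Apln, beside 14.9% of features, and below them for 3, Tek, Emcn and Lyve1, beside 12.5%. By sign alone, 2 members were higher on both arrays (21.7% of features), 4 were lower on both (19.7%) and 4 were opposite. The median mean log2 ratio of the 10 was -0.13, against 0.01 over all features.

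The tip genes were set against the pan-endothelial genes within each array. The mean log2 ratio of Esm1 and Apln was 0.98 in male and 0.15 in female ureters, and that of Pecam1, Cdh5, Kdr, Tek and Emcn was -0.12 and -0.13. The difference, tip minus pan-endothelial, was 1.10 in male and 0.27 in female ureters (mean 0.69, SD 0.59, n = 2). It was positive on each array, and its size rested on the male one. With Apln as the only tip gene the difference was 0.62 and 0.19 (mean 0.41), and with Esm1 alone it was 1.59 and 0.35 (mean 0.97). With 2 arrays no exact permutation test by sign can give a p under 0.5, and the genes were chosen with results known, so no test was made.

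**Figure D2:**
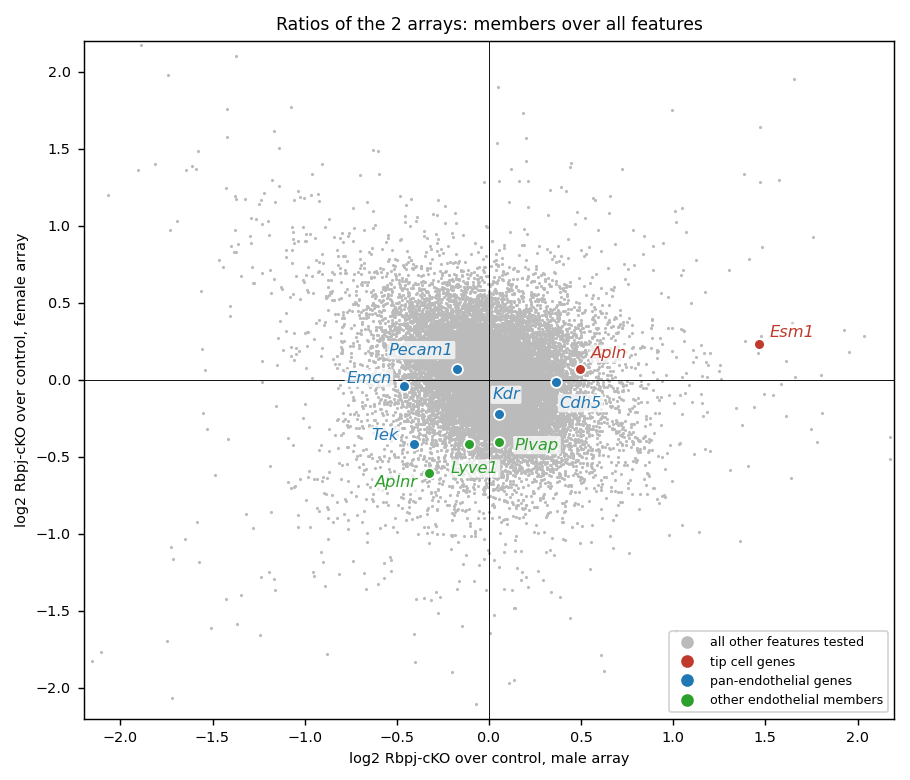
Log2 ratio of Rbpj-cKO over control on the male array (x axis) against the female array (y axis), with grey points for the other features tested (22 features beyond 2.2 on either axis are not drawn) and coloured points for the tip, pan-endothelial and other members. Esm1 lies at 1.47 and 0.23, away from the pan-endothelial genes, whose ratios stay between -0.46 and 0.36 on the male and between -0.41 and 0.07 on the female array.

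Other genes of sprouting vessels differed among themselves in direction. Of 20 listed, 19 were tested and none passed (limma); 7 had positive and 3 negative ratios on each array, and the median was 0.11 (0.21 in male and 0.0034 in female ureters). Unc5b, a netrin receptor of tip and arterial cells, had the highest mean ratio, 0.48 (0.67 and 0.28), followed by Trp53i11 with 0.35 (0.59 and 0.11). Dll4, the Notch ligand of tip cells, had levels of 404.4 and 421.0 in Rbpj-cKO and 377.2 and 352.5 in control channels, and log2 ratios of 0.10 and 0.26. Angpt2, the Tek ligand released by sprouting endothelium, ran against Esm1: its levels were 2980 and 2962 in Rbpj-cKO channels and 3753 and 4775 in control channels (mean log2 ratio -0.51, limma adjusted p = 1.00). Ednrb, an endothelin receptor, had -0.44.

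Further pan-endothelial genes were spread around no change. Of 30 listed, 28 were tested and none passed (limma); 7 were higher and 5 lower on both arrays, and the median was 0.02. The list's median was 0.17 in male and -0.18 in female ureters, so its sign followed the array. Robo4, a guidance receptor of endothelium, was the highest with 0.47 (0.77 and 0.16), and its male control level of 7186 was the lowest of its channels, the others being 12274 and 11276 in Rbpj-cKO and 10073 in the female control. Ptprb, the phosphatase that acts on Tek, followed with 0.30, and its second probe gave a mean of -0.13. The lowest were the adhesion receptor Adgrl4 with -0.42 and the secreted factor Egfl7 with -0.37 (0.16 and -0.90). Flt1, the decoy receptor that limits Kdr signalling, had 0.31 in male and -0.28 in female ureters.

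Arterial genes had a median of 0.08 (0.19 in male and 0.18 in female ureters), with 7 of 18 higher and 1 lower on both arrays and none past the limma test. Hey1, a Notch target used in arterial endothelium and in other tissues, was the highest, at 1.02 in each sex (2.03-fold on average, limma adjusted p = 0.122), and Jag1, a Notch ligand, the lowest with -0.27. Venous and capillary genes had a median of 0.02 (0.15 and 0.03) with none of 15 past the test. Of these, Vcam1, a leukocyte adhesion molecule also made outside endothelium, had 0.37 and the fatty acid receptor Cd36 -0.29 (-0.62 and 0.04). The 12 Notch genes used in vessels had a median of -0.02; Heyl fell and the other 11 did not pass, and among these the ligand Jag2 had 0.35.

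Some genes of the lymphatic list were, like Esm1, higher in Rbpj-cKO mainly on the male array, and others were not. The list had a median of 0.29 in male and -0.08 in female ureters (mean over arrays 0.19). Of 15 listed genes 13 were tested, and none passed the limma test. By sign, 4 were higher and 1 lower on both arrays, and 8 were opposite. The lymphatic regulators Prox1 and Flt4 did not pass the filter on dim probes. Mmrn1, a secreted multimerin of lymphatic vessels, had levels of 5958 and 6123 in Rbpj-cKO channels, against 1888 and 6040 in control channels. Ccl21a, the chemokine that draws leukocytes into lymph vessels, had 48991 and 29715 in Rbpj-cKO and 13998 and 34526 in control channels. In both the male control was the lowest channel, as for Esm1, while Rbpj-cKO and control differed little on the female array (log2 ratios 0.02 and -0.22). Fgl2 and Thy1 of the same list, named after their values were seen, had 1.38 and 1.07 on the male and -0.29 and -0.08 on the female array. Lyve1 did not share this, with -0.11 on the male array, nor did the transcription factor Maf, the lowest of the list with a mean of -0.60. A second Maf probe gave a mean of -0.15. Smaller or opposite ratios were found for Stab2 (0.13 and -0.08), Itga9 (0.11 and 0.15), Gata2 (0.07 and 0.35) and Foxc2 (-0.20 and 0.33). All of these but Stab2 were named after their values were seen.

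Macrophage genes are given beside Lyve1, since some macrophages express it. Of 16 genes, 8 were lower and 0 higher on both arrays, and none passed the limma test. Their median was -0.06 in male and -0.42 in female ureters, against -0.11 and -0.42 for Lyve1 itself. The summed level of the list was 155037 and 129384 in Rbpj-cKO and 161360 and 172971 in control channels, and every listed marker was above the filter. The male median turned to 0.03 with median centring. F13a1 had the lowest mean with -0.56, the complement gene C1qb had -0.49, and the macrophage receptor Adgre1 was the highest with 0.04, while its second probe gave a mean of -0.04. The part of macrophages in the Lyve1 values was not tested.

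Mesothelial markers are given beside Esm1, since they also parted on the male array. Their median was 0.76 in male and -0.21 in female ureters (10 of 10 tested, 4 higher and 0 lower on both arrays). The summed level was 211258 and 230083 in Rbpj-cKO and 190839 and 171909 in control channels. Most of it came from Krt19, a keratin with levels of 133908 and 164588 in Rbpj-cKO and 133261 and 108211 in control channels. Krt19 and Upk3b are also on the urothelial list. Without these 2 genes, left out after seeing the data, the sum was 57183 and 46076 in Rbpj-cKO and 40867 and 45745 in control channels, and the median 1.03 and -0.29. Rspo1 was the highest with 2.17 and -0.37, the mucin Muc16 had 1.18 and -0.21, and Lrrn4 was the lowest with 1.01 and -1.63. Every listed marker was above the filter. Their part in the Esm1 values was not tested.

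Ligands that act on endothelium had no shared direction: of 18 listed, 16 were tested, 4 were higher and 5 lower on both arrays, none passed the limma test, and the median was 0.02. Vegfa, which drives tip cells through Kdr, had levels of 11294 and 9276 in Rbpj-cKO and 13465 and 10015 in control channels (mean log2 ratio -0.18). Vegfc, a lymphatic growth factor, had 0.31, and Angpt4, a further Tek ligand, was the highest with 0.49. The lowest, beside Angpt2, was the repulsive guidance factor Sema3a with -0.50 on average (-0.49 and -0.50), while its second probe gave a mean of -0.19. Mural cell genes, which mark the pericytes and muscle cells around vessels, had a median of -0.15 (-0.03 in male and -0.30 in female ureters), with 6 of 14 lower and 2 higher on both arrays and none past the test. The male mural median turned to 0.17 with median centring. The potassium channel Kcnj8 had -0.68 (limma adjusted p = 0.660), Des -0.64 and the connexin Gja4 0.14. Des is also on the smooth muscle list and Gja4 on the arterial list. In whole ureters, muscle around vessels and muscle of the ureter wall cannot be told apart.

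**Figure D3:**
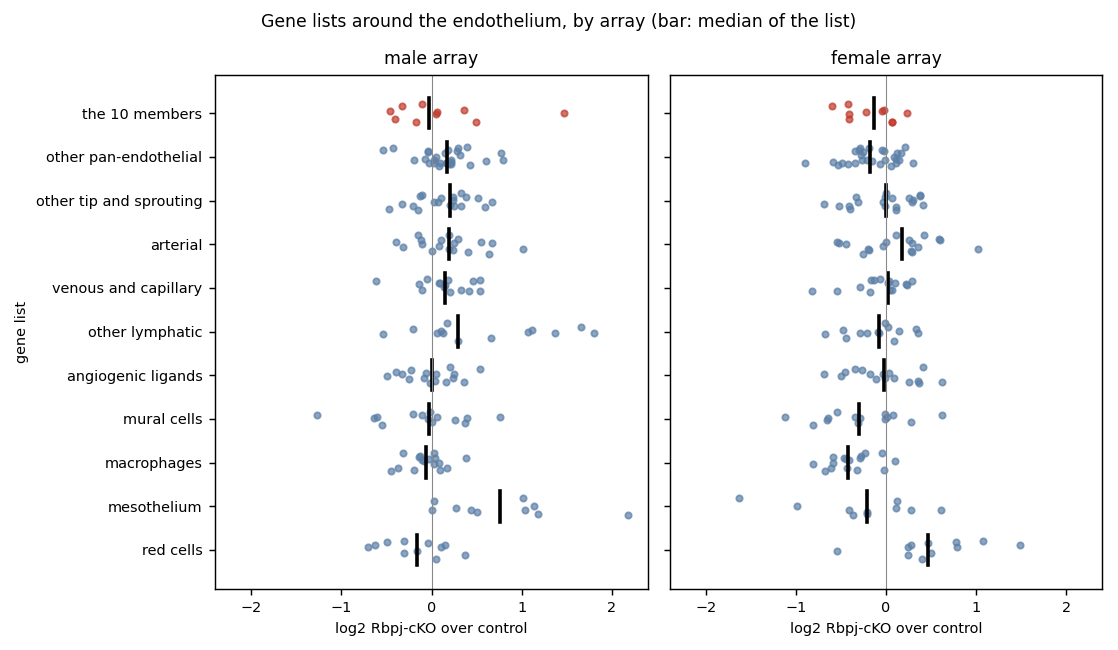
Log2 ratio of Rbpj-cKO over control for each tested gene of the 10 members and of 10 further lists, on the male (left) and the female array (right), with a bar at each list's median. The lymphatic median is 0.29 in male and -0.08 in female ureters, and the mesothelial median 0.76 and -0.21, while the median of the 10 members is -0.03 and -0.13.

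**Figure D4:**
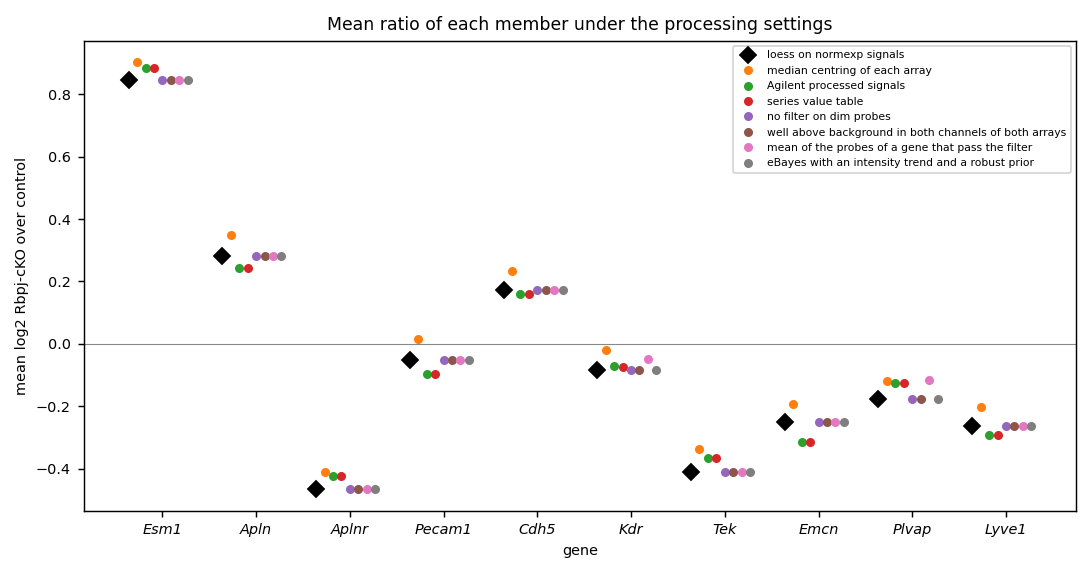
Mean log2 ratio of each member under the loess setting (diamonds) and 7 other processing settings (circles). Esm1 stays between 0.85 and 0.90 and Aplnr between -0.47 and -0.41, and Pecam1 is the gene whose mean crosses 0.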

How the data were processed

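Total RNA of dissected ureters was amplified and labelled with 2 dyes, per the labels' protocols. Spot intensity was deposited as written by Agilent Feature Extraction 10.7.3.1, per the submitters' processing notes, with raw mean and background signals. The processed signals are background-subtracted, detrended and dye-normalized, and the log10 ratio is red over green, per the file headers. A further deposited table gives a score per probe, a signed fold; how it was made is not stated in the labels. Its ranks followed Rbpj-cKO over control processed signals (Spearman 0.999 over probes on each array), and its column medians were 1.0, so direction follows from this match and how it was centred stays unknown.

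Mean signals were corrected with normexp (offset 50) and loess within each array (limma 3.58.1, R 4.3.3). Control and outlier spots were dropped, and the remaining spots of each probe averaged. Probes were kept if well above background in both Rbpj-cKO channels or in both control channels, and the brightest probe stood for a gene. Of 39429 probes, 26412 were named through RefSeq accessions (GRCm38.p6) and 13017 by the files. Ratios were turned to Rbpj-cKO over control and tested with lmFit and eBayes over 20989 features (1 residual and 10.3 prior degrees of freedom), two-sided, with Benjamini-Hochberg adjustment and a threshold of 0.05. Channel levels were taken after Aquantile. The step was tested on simulated data. The members and 15 gene lists were chosen with earlier results of these data known. From each list the genes past the test and those of highest and lowest mean ratio are named, up to 4 a list, and Rbpj, Dll4, Vegfa, Flt1 and Angpt2 whatever their values. The number of arrays limits the precision.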

Additional observations from a re-analysis of the deposited data

Results flagged for a closer look

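On 1 male and 1 female array, 4 members had ratios of opposite sign. These were Cdh5 (0.36 in male and -0.0182 in female ureters), Kdr (0.0567 and -0.22), Pecam1 (-0.17 and 0.0686) and Plvap (0.0527 and -0.41). Pecam1 had one sign on both arrays with median centring, processed signals and the value table, and Kdr when its probes were averaged. The difference between the arrays was not tested, since each sex has 1 array, and 58.6% of all features were opposite in sign.

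Among the other genes named, Ccl21a (1.81 and -0.22), Fgl2 (1.38 and -0.29), Thy1 (1.07 and -0.0847), Muc16 (1.18 and -0.21), Lrrn4 (1.01 and -1.63) and Rspo1 (2.17 and -0.37) were higher in Rbpj-cKO on the male array alone. Flt1 (0.31 and -0.28), Egfl7 (0.16 and -0.90), Gp9 (0.40 and -0.0568), Adgre1 (0.0997 and -0.0221) and Krt7 (0.0200 and -0.20) did so by less. The fatty acid receptor Cd36 (-0.62 and 0.0371) and the red cell anion exchanger Slc4a1 (-0.63 and 1.49) were higher on the female array alone. Medians of opposite sign were those of the lymphatic (0.29 and -0.0750), further pan-endothelial (0.17 and -0.18), mesothelial (0.76 and -0.21), Notch (0.13 and -0.27), red cell (-0.16 and 0.46) and angiogenic ligand lists (0.0070 and -0.0230). None of these differences was tested. With median centring the red cell medians shared a sign (0.19 and 0.17), as did Cd36 (-0.39 and -0.0662). With processed signals Cd36 (-0.57 and -0.0675), Gp9 (0.65 and 0.23) and the ligand medians (0.0451 and 0.00529) shared one.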

How the results depend on the processing

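No member passed limma's test under any of the 7 settings that gave a p (lowest adjusted p 0.684, for Esm1 with probes required above background in all 4 channels), while 0 to 3 members had an unadjusted p under 0.05. Over these settings 69 of 70 mean ratios of members kept their sign; Pecam1 turned to 0.0153 with median centring. Over these and 3 changes of the contrast's genes, made after seeing the data, the tip minus pan-endothelial difference was 0.41 to 0.97. Median centring moved the median of all features to 0.17 in male and -0.09 in female ureters. Values per array under it, their signs and the gaps between arrays are relative to that shift. With 1 array left out the tip minus pan-endothelial difference was 0.27 to 1.10, a value with no test. The number of features past the limma test was 27, and 0 with median centring, processed signals, the value table and without a filter on dim probes (226, 837, 818 and 979 at an unadjusted p under 0.05). It was 10 when probes of a gene were averaged and 46 with an intensity trend and a robust prior; the cause was not tested. No slide effect could be fitted with 2 arrays. The ratios within an array are themselves the paired comparison of the groups.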

Other observations

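Cell types outside the vessels are given as values, as a description of the tissue. Urothelial markers had a median of 0.21 (0.09 in male and 0.28 in female ureters), with 11 of 14 higher and 0 lower on both arrays, and the basal keratin Krt5 had 0.55, while its second probe gave a mean of 0.25. With median centring the urothelial medians were 0.62 and -0.24, so the female direction depended on the setting. The keratin Krt7 was the lowest with -0.09. Smooth muscle markers had a median of -0.32 (-0.43 in male and -0.19 in female ureters), with 8 of 10 lower and 1 higher on both arrays. With median centring the smooth muscle medians were -0.04 and -0.56, so which array had the lower one depended on the setting. The smooth muscle actin Actg2 had -0.58, and Smtn was the highest with 0.16. No member of either list passed the limma test.

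The median of red cell genes was -0.16 in male and 0.46 in female ureters (11 of 13 tested, none past the limma test), but 0.19 and 0.17 with median centring. Their summed level was 737018 and 869426 in Rbpj-cKO channels, against 726053 and 663855 in control channels. The embryonic globin Hbb-y had a mean of -0.36. Platelet genes had a median of -0.05 (6 of 7 tested), with Gp9 the highest at 0.17 and Pf4 the lowest at -0.18.

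Markers of kidney epithelium and nephron progenitors had a median of 0.21 over the 6 of 14 tested. It was -0.0037 over all 14 without the filter on dim probes. Six2, a regulator of nephron progenitors, had levels of 1276 and 1603 in Rbpj-cKO and 457.2 and 880.6 in control channels, with log2 ratios of 1.48 and 0.86 (mean 1.17, limma adjusted p = 0.102), and its second probe gave a mean of 0.38. Cited1, of the same progenitors, was the lowest with -0.59. None of the platelet or kidney genes passed the limma test.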
